A study of Rattus norvegicus with 6 samples.

Results

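Signals of 8 transcription factors of the developing cerebral cortex, Fezf2, Bcl11b, Sox5, Tbr1, Foxp2, Cux1, Eomes and Emx1, were examined in rat cortical cells that received Math2. Their probe sets were found by gene symbol, and the genes themselves were chosen with earlier results of these data known. The platform annotation gave probe sets to 7 of these 8 genes, of 14217 genes named on the array, and the 7 had 11 of the 31042 probe sets that were not controls. Sox5 is not analysed here. The Math2 group consisted of primary rat cortical cells co-transfected with 13.3 µg of a Math2 expression vector and 2.7 µg of a vector for LNGFR, a shortened neurotrophin receptor displayed on the cell surface as a tag. The control group received 13.3 µg of a control vector and the same 2.7 µg of the LNGFR vector, so both groups carried the tag. Tagged cells were separated 24 h later, and 50 ng of total RNA was amplified and hybridized to Affymetrix rat expression arrays, with 3 Math2 and 3 control samples. The labels do not give the promoter of the vectors, the species of the Math2 sequence, the age or strain of the rats, or whether the samples were separate cultures, so the p-values reflect the spread among these particular samples and nothing wider, and that spread may be technical.

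Math2, now called Neurod6, belongs to the basic helix-loop-helix (bHLH) proteins and is made in maturing glutamatergic neurons of the cortex. The cortex is built in layers from progenitors of the dorsal telencephalon, and the layer factors mark and direct successive steps of this process. Emx1 marks the dorsal telencephalic lineage, Eomes (Tbr2) the intermediate progenitors, Tbr1, Fezf2, Bcl11b (Ctip2), Sox5 and Foxp2 the neurons of the deep layers, and Cux1 those of the upper layers. In mouse, Fezf2 specifies subcerebral projection neurons and acts in part through Bcl11b, whereas Tbr1 specifies corticothalamic neurons and represses Fezf2.

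bHLH factors bind E-boxes, short sites of the form CANNTG. This motif is its own reverse complement, so 1 search covers both strands. The RefSeq promoter windows of GRCr8, which span 250 bases before to 50 bases after a transcription start, held entries for 5 of the 8 genes. CANNTG was present in 71.6% of 27457 such promoters. The windows of Fezf2 and Eomes and both annotated windows of Cux1 had 0 matches. The Tbr1 window had 1 match and the Emx1 window had 2, and all 3 read CAGGTG. More specific E-box forms were not found in any window of the 5 genes: CAGATG (or CATCTG on the other strand), CATATG and CAGCTG, which 16.3%, 3.96% and 15.1% of all promoters held. The windows of Fezf2, the listed gene with the largest log2 difference on the arrays, and of Emx1 and Tbr1, the listed genes with a match, are shown 5′ to 3′ with CANNTG matches in capitals. The Fezf2 window lies at chr15:15203943-15204242, the Emx1 window at chr4:119282442-119282741 and the Tbr1 window at chr3:66759553-66759852, all on the plus strand. The first bases of the Emx1 matches lay 86 and 53 bases upstream of the start, and that of the Tbr1 match 46 bases upstream. These matches describe letters in a short window and carry no measurement of binding.
Fezf2: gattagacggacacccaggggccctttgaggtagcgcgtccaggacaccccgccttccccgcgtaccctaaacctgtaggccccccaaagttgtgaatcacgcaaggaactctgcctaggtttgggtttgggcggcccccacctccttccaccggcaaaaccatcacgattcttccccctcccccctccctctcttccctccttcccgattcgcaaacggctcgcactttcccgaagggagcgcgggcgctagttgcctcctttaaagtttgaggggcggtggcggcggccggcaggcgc
Emx1: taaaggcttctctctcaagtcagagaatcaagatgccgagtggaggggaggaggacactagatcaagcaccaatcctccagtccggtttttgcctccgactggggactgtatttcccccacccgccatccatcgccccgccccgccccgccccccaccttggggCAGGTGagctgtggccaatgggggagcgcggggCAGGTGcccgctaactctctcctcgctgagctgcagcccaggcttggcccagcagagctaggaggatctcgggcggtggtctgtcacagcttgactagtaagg
Tbr1: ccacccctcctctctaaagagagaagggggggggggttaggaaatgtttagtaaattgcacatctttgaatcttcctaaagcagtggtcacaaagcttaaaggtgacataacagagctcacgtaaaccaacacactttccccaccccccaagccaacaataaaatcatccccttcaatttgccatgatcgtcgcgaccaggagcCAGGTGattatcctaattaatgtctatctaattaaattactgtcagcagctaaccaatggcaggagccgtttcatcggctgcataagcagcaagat

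The deposited values were linear MAS5 signal intensities, with array medians of 102 to 120. A log2 difference is Math2 minus control on the log2(signal + 7.41) scale; for dim probe sets this makes changes look smaller than they are. Arrays are named by their labels. The Neurod6 probe set had a log2 difference of 0.021 (95% confidence interval -1.63 to 1.67), and the Math2 array was the lower one of the pair for numbers 1 and 2. Which part and species of Math2 the vector held is not given, so whether this probe set could detect the vector transcript is unknown and it does not check the labels. Cells of the cortex were represented by 10 of 12 pan-neuronal markers that passed the filter on low signals, while Syt1 and Nefl lay below the array median on all 6 arrays. Of 6 glutamatergic neuron markers, Slc17a6, Neurod2 and Nrgn were tested, with log2 differences of 0.29, 0.78 and 0.79, none of which passed. Slc17a7, Camk2a and Grin2b lay below the median on all 6 arrays and were not tested. Their log2 differences were 0.87, -0.30 and -0.51, so the 6 markers did not share a direction. The summed signal of the glutamatergic markers was 636, 661 and 1228 on Math2 arrays 1, 2 and 3, against 609, 416 and 798 on control arrays 1, 2 and 3. All 6 tested fibroblast and meningeal markers of 8 had a difference below 0, with a median of -0.35 and 3 without overlap. Over all tested probe sets 4.3% were lower without overlap. Of the 3, Aldh1a2 passed the filter only through its control signals, so nothing is read from its separation. Its mean log2 signals were 5.72 in Math2 arrays and 6.70 in control arrays. Lum and Dcn, which were not tested, had log2 differences of 0.40 and 0.14. The 8 markers summed to 5406 to 7052 in Math2 arrays and 6111 to 7907 in control arrays. Of 8 microglial and macrophage markers, 7 lay below the median on all arrays. The astrocyte markers summed to 25307 to 41105 in Math2 arrays and 28041 to 37453 in control arrays. The radial glia and cycling progenitor markers summed to 46216 to 71173 in Math2 arrays and 46814 to 52204 in control arrays. The hybridization spike-in controls had geometric mean signals of 3875 to 6773 on Math2 arrays and 1893 to 2566 on control arrays. The ratio of Gapdh signal at the 3′ end to that at the 5′ end, which grows as transcripts are less complete, was 6.0 to 8.48 on Math2 arrays and 3.74 to 13.8 on control arrays. The part of these markers and array measures in the results was not tested.

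No listed factor passed the test between the groups. Of the 11 probe sets, 9 from 6 genes passed the filter, and 2, the Tbr1 probe set and 1 of 3 Bcl11b probe sets, did not. Among the 9, limma called 0 (adjusted p = 1.00 for each), and with the replicate number as a block it again called 0 (adjusted p from 0.401 to 0.996). At an unadjusted p under 0.05 there was 1 of 9 without the block, the probe set of Fezf2. With the block there were 3 of 9, those of Fezf2, Foxp2 and Eomes 1379530_at. Fezf2 was tested only because of its Math2 signals, so nothing is read from these counts. Of all 18625 probe sets in the test, 0% were called higher and 0% lower by limma, with 326 higher and 268 lower at an unadjusted p under 0.05. With the block it called 0.0161% higher, which were probe sets of Rtp3 and Plppr4 and 1 without a gene name, and 0% lower, with 704 higher and 731 lower at an unadjusted p under 0.05. Of the 9, 6 had a log2 difference above 0 and 3 below, with a median of 0.29, against a median of -0.031 over all tested probe sets. The 9 hold more than 1 probe set of some genes, and Fezf2, which was tested only because of its Math2 signals. Nothing is read from this contrast. In bulk samples such as these, more cells of a type and more RNA per cell cannot be told apart. The plot of signals by array shows the members' values.

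**Figure D1:**
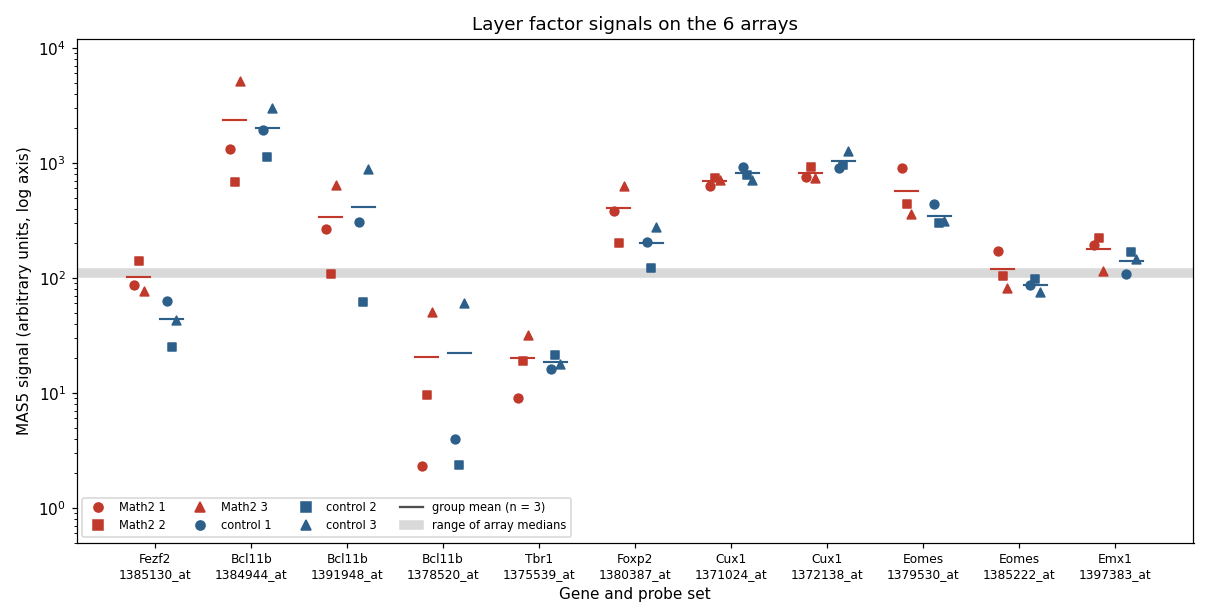
MAS5 signals (log axis) of the 11 probe sets of 7 layer factors on 3 Math2 arrays (red, left of each pair) and 3 control arrays (blue, right); marker shapes give the replicate number, short lines the group means (n = 3), and the grey band the range of array medians. The groups are apart for Fezf2 and overlap for every other probe set, and Tbr1 lies below the grey band on all 6 arrays. Fezf2 passed the filter only through its Math2 signals, so nothing is read from its separation.

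Fezf2, a zinc finger factor that specifies deep-layer subcerebral neurons, was the listed gene with the largest difference. Its only probe set, 1385130_at, had signals of 86.8, 140 and 77.4 on Math2 arrays 1, 2 and 3, against 63.5, 25.3 and 43.4 on control arrays 1, 2 and 3. The lowest Math2 signal exceeded the highest control signal, which was the case for 3.7% of all tested probe sets, while 4.3% were lower without overlap. Means were 101 ± 34.0 in Math2 arrays and 44.1 ± 19.1 in control arrays (SD, n = 3). The log2 difference was 1.11 (SE 0.430, 95% confidence interval 0.16 to 2.06), or 2.15-fold on the log2(signal + 7.41) scale. It did not pass in limma (adjusted p = 1.00, or 0.578 with the replicate block), and the exact permutation test gave p = 0.1, the smallest possible for 3 against 3 arrays. The signals were dim: 5 of the 6 arrays lay below their own median, and the probe set stood at the 43.8th to 52.8th percentile of signals on the Math2 arrays and the 22.4th to 41.4th on the control arrays. Its mean log2 signal was 6.72 in Math2 arrays and 5.62 in control arrays, and the filter was set at 6.07 over all arrays. The probe set was thus tested only because of its Math2 signals. Nothing is read from its separation beside the 3.7%, or from the permutation p that follows from it. Leaving out a single array gave log2 differences between 0.82, without control array 2, and 1.37, without control array 1. Without Math2 array 1 or Math2 array 2 it was below the filter and not tested, with differences of 1.19 and 0.87. With the block, leaving out numbered pair 2 gave 0.57.

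Bcl11b, a zinc finger factor of corticospinal neurons that is also made in GABAergic neurons of the striatum, differed far more between replicate numbers than between groups. Its brightest probe set, 1384944_at, had signals of 1333, 677 and 5131 on Math2 arrays 1, 2 and 3, against 1936, 1126 and 2982 on control arrays 1, 2 and 3. In each group array 3 was the highest and array 2 the lowest, and the groups overlapped. The log2 difference was -0.16 (SE 0.619, 95% confidence interval -1.53 to 1.21). Probe set 1391948_at had 266, 107 and 639 on Math2 arrays 1, 2 and 3, against 306, 61.8 and 883 on control arrays 1, 2 and 3, with a difference of 0.024 (SE 0.841). Again array 3 was highest and array 2 lowest in each group. The sign of both differences depended on single arrays. For 1384944_at the difference was 0.00061 without Math2 array 1, 0.49 without Math2 array 2 and 0.18 without control array 3. Leaving out Math2 array 3 gave -0.97 and leaving out control array 2 gave -0.52. For 1391948_at, leaving out Math2 array 3 gave -0.60 and leaving out control array 2 gave -0.95, while leaving out Math2 array 2, control array 3 or control array 1 gave 0.65, 0.89 and 0.14. The third probe set, 1378520_at, ranged from 2.32 to 50.2 in Math2 arrays and from 2.35 to 60.4 in control arrays, and was below the median on all 6. On the control arrays 1384944_at stood at the 84.9th to 94.8th percentile of signals and 1391948_at at the 39.2nd to 81.6th.

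Tbr1, a T-box factor of the earliest deep-layer neurons, was dim on every array. Probe set 1375539_at had signals of 8.96, 19.1 and 31.9 on Math2 arrays 1, 2 and 3, against 16.0, 21.5 and 17.8 on control arrays 1, 2 and 3. The values overlapped and lay below every array median, at the 12.7th to 26.1st percentile on Math2 arrays and the 16.4th to 20th on control arrays, and the probe set was not tested. Percentiles place a probe set on its own array and do not order the genes, since probes differ in how well they bind. With no detection calls in the table, whether Tbr1 was above background is unknown.

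Foxp2, a forkhead factor of layer VI corticothalamic neurons, had signals of 379, 202 and 626 on Math2 arrays 1, 2 and 3, against 205, 122 and 279 on control arrays 1, 2 and 3 (probe set 1380387_at). The groups overlapped, but within each replicate number the Math2 array was the higher one, by 0.87, 0.70 and 1.14 on the log2 scale for numbers 1, 2 and 3. Means were 402 ± 213 in Math2 arrays and 202 ± 78.8 in control arrays (SD, n = 3). The log2 difference of 0.90 had an SE of 0.445 without the block (95% confidence interval -0.084 to 1.89) and of 0.265 with it (0.33 to 1.48). Foxp2 had the smallest blocked p of the listed factors and did not pass in limma (adjusted p = 0.401 with the block; exact permutation p = 0.3). Leaving out Math2 array 3 gave a difference of 0.52, leaving out control array 2 gave 0.59, and leaving out Math2 array 2 gave 1.32. Its percentile among all signals was 58.9 to 77.5 on Math2 arrays and 51.7 to 63.7 on control arrays, always above the array median.

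Cux1, a homeodomain factor of upper-layer neurons that is also made outside the brain, was the only tested gene of the list whose probe sets all had a negative log2 difference. Probe set 1372138_at had signals of 761, 927 and 746 on Math2 arrays 1, 2 and 3, against 908, 967 and 1271 on control arrays 1, 2 and 3. Probe set 1371024_at had 624, 743 and 714 on Math2 arrays 1, 2 and 3, against 931, 783 and 718 on control arrays 1, 2 and 3. The Math2 array was the lower one in 3 of 3 numbered pairs for both, but in each the highest Math2 array overlapped the control range. Log2 differences were -0.36 (SE 0.252, 95% confidence interval -0.92 to 0.20) and -0.22 (SE 0.248, -0.77 to 0.33). The probe sets stood between the 78.4th and 86.4th percentile on every array. For 1372138_at the difference was -0.21 without control array 3. For 1371024_at, leaving out control array 1 gave -0.11 and leaving out Math2 array 1 gave -0.14.

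Eomes, the T-box factor of intermediate progenitors, had 2 probe sets, and each was highest on Math2 array 1. The brighter, 1379530_at, had signals of 910, 436 and 361 on Math2 arrays 1, 2 and 3, against 437, 300 and 310 on control arrays 1, 2 and 3. The dimmer, 1385222_at, had 172, 104 and 81.0 on Math2 arrays 1, 2 and 3, against 86.9, 97.7 and 74.8 on control arrays 1, 2 and 3. Both were higher in 3 of 3 numbered pairs and both overlapped between groups. On the control arrays the brighter stood at the 65.4th to 72.1st percentile and the dimmer at the 41.3rd to 47.9th. Log2 differences were 0.60 (SE 0.370, 95% confidence interval -0.22 to 1.42) and 0.37 (SE 0.378, -0.47 to 1.21). Math2 array 1 carried much of this: without it the differences were 0.20 and 0.087. Without Math2 array 3 that of the dimmer probe set was 0.60. The radial glia and cycling progenitor markers also had their highest summed signal on Math2 array 1, at 71173, with 64342 and 46216 on Math2 arrays 2 and 3, against 52204, 46990 and 46814 on control arrays 1, 2 and 3. Vim and Fabp7 made up most of these sums, while the proliferation markers Mki67 and Top2a had 3666 and 1864 on Math2 array 1, against 5109 and 3337 on control array 1. Of the 7 markers 3 had a log2 difference above 0 and 4 below (1 above and 6 below with quantile normalization). Their part in the Eomes values was not tested.

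Emx1, a homeodomain factor of the dorsal telencephalic lineage, had signals of 193, 224 and 114 on Math2 arrays 1, 2 and 3, against 108, 170 and 145 on control arrays 1, 2 and 3 (probe set 1397383_at). The groups overlapped, and the Math2 array was the higher one in 2 of 3 pairs. The log2 difference of 0.29 (SE 0.364, 95% confidence interval -0.52 to 1.09) became 0.097 when Math2 array 2 was left out, 0.12 when control array 1 was, and 0.56 when Math2 array 3 was. The probe set lay close to the array medians, at the 50.9th to 60.7th percentile on Math2 arrays and the 51.1st to 57.0th on control arrays.

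**Figure D2:**
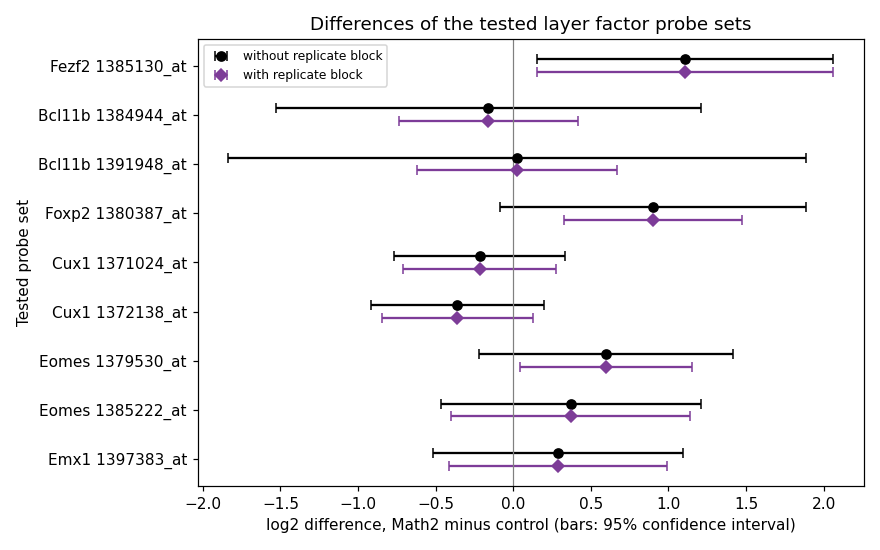
Log2 differences (Math2 minus control) of the 9 tested probe sets with 95% confidence intervals, from limma without (black circles) and with (purple diamonds) the replicate number as a block. Fezf2 at 1.11 and Foxp2 at 0.90 lie farthest from 0. The intervals of all probe sets but that of Fezf2 are shorter with the block, the most for both Bcl11b probe sets and Foxp2.

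By replicate number, 4 of the 9 tested probe sets were higher in 3 of 3 pairs, those of Fezf2 and Foxp2 and both of Eomes, and 2 were lower in 3 of 3, both of Cux1. Over all tested probe sets 13.1% were higher and 15.2% lower in 3 of 3. The probe sets of Eomes and of Cux1 share a gene and are not separate evidence. Fezf2 entered the test only through its Math2 signals, so its place among the 4 is not read against the 13.1%.

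The variation of the listed factors was split into the part between groups, the part between replicate numbers and a remainder, as shares of the sum of squares of the log2 signals over the 6 arrays. Replicate number took 86.8%, 96.1% and 95.5% of the variation of the Bcl11b probe sets 1384944_at, 1391948_at and 1378520_at, against a median of 55.5% over all tested probe sets (quartiles 32.2% and 75.3%). Its share was larger in 1.84% of tested probe sets than in 1391948_at and in 10.9% than in 1384944_at. For Foxp2 the share of number was 59.9% and that of group 38.5%, which left 1.61%. At the other end, number took 3.81% of the variation of Fezf2, and group took 65.0%, but Fezf2 entered the test only through its Math2 signals, so nothing is read from its group share. The Cux1 probe sets also had low number shares, 15.3% and 6.17%. The order of the 3 numbers was the same in both groups for 3 of the 9 tested probe sets, those of Foxp2 and 2 of Bcl11b, and for 27.8% of all tested probe sets.

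**Figure D3:**
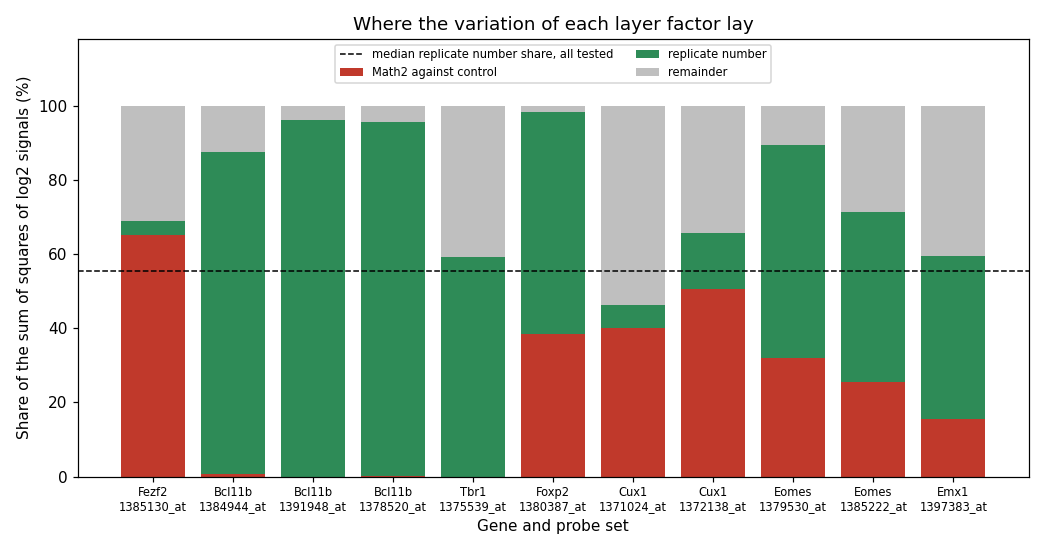
Shares (%) of the sum of squares of log2 signals over 6 arrays that lay between Math2 and control (red), between replicate numbers (green) and in the remainder (grey), for each of the 11 probe sets; the dashed line is the median number share of all tested probe sets, 55.5%. Bcl11b is almost wholly green, at 86.8% to 96.1%, and Fezf2, which passed the filter only through its Math2 signals, is mostly red, at 65.0%.

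The order of the arrays seen for Bcl11b was shared by some neuronal genes and not by others. Neurod6 had signals of 312, 167 and 1546 on Math2 arrays 1, 2 and 3, against 386, 207 and 973 on control arrays 1, 2 and 3, with a number share of 96.0%. The summed signal of 12 pan-neuronal markers was 18979, 16296 and 36594 on Math2 arrays 1, 2 and 3, against 21783, 15849 and 28294 on control arrays 1, 2 and 3. That of 9 GABAergic interneuron markers was 3965, 3765 and 7150 on Math2 arrays 1, 2 and 3, against 5948, 3393 and 7042 on control arrays 1, 2 and 3. In each of these sums, array 3 was the highest and array 2 the lowest in both groups, as for Bcl11b. Gene by gene, this order held for 5 of 10 tested pan-neuronal markers, among them Snap25, Stmn2 and Dcx, and for 3 of 7 tested GABAergic markers, among them Gad1. It did not hold for Tubb3, at 600, 782 and 1317 on Math2 arrays 1, 2 and 3, against 505, 685 and 1587 on control arrays 1, 2 and 3. Of the 3 tested glutamatergic markers only Slc17a6 took it, and in the glutamatergic sum the lowest Math2 array was array 1. The share of all tested probe sets that took the order of Bcl11b is not given, so nothing is read from these counts of markers. The part of neuron content in the Bcl11b and Foxp2 values was not tested.

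Among the other layer genes, Bhlhe22, Mef2c and Pou3f1, all from the upper-layer and callosal list described below, followed the same order. That order held for 4 of 8 tested genes of this list, and for 3 of 14 tested deep-layer and subplate genes. It held for 0 of 10 tested progenitor and area-patterning factors and for 1 of 7 tested paralogs of the listed factors. Over all tested probe sets, 27.8% had the same order of numbers in both groups, whichever order that was. The share with this particular order is not given, so nothing is read from these counts. Bhlhe22, a bHLH repressor of postmitotic cortical neurons, had 2073, 1314 and 5789 on Math2 arrays 1, 2 and 3, against 2983, 1630 and 3956 on control arrays 1, 2 and 3. Lhx2, a LIM homeodomain factor of cortical progenitors, took another order, with 9824, 7704 and 5326 on Math2 arrays 1, 2 and 3, against 8004, 6107 and 4710 on control arrays 1, 2 and 3, and was lowest on array 3 in both groups. The progenitor factor Emx2 had 1326, 1151 and 785 on Math2 arrays 1, 2 and 3, against 1414, 1071 and 819 on control arrays 1, 2 and 3, with a number share of 98.1%. Bhlhe22, Mef2c and Emx2, and Pax6 in the plot of centred levels, were chosen after their values were seen. Pou3f1 was named for the closeness of its profile to that of Bcl11b, so its order follows from that choice.

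**Figure D4:**
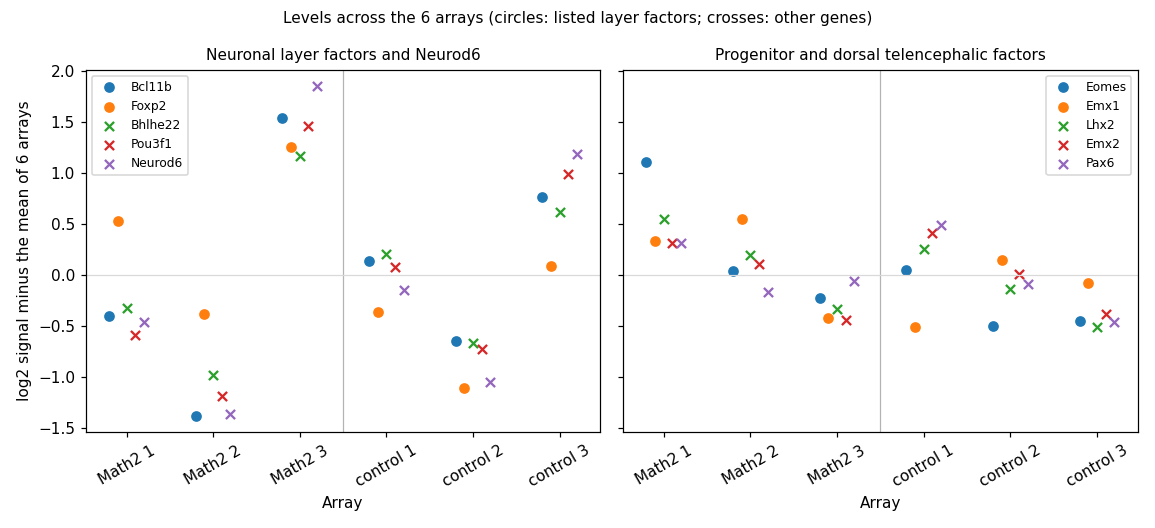
Log2 signals minus the mean of the 6 arrays, for Math2 arrays (left of each panel) and control arrays (right); circles are listed layer factors and crosses other genes. On the left, Bcl11b, Foxp2, Bhlhe22, Pou3f1 and Neurod6 are highest on array 3 and lowest on array 2 of each group. On the right, Eomes, Emx1, Lhx2, Emx2 and Pax6 do not follow that order. Pou3f1 was named for its closeness to the Bcl11b profile, and Bhlhe22, Emx2 and Pax6 were chosen after their values were seen. Nothing is read from the order of these genes.

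Likeness of profile was measured as the root mean square difference of centred log2 signals over the 6 arrays, against every other tested probe set with 1 gene symbol, about which nothing of function follows. Nearest to Bcl11b were Rab9b, at 0.120, and the POU factor gene Pou3f1, at 0.153, where the median over 13751 probe sets was 1.04. Pou3f1, a factor of layer V neurons, had signals of 400, 264 and 1653 on Math2 arrays 1, 2 and 3, against 635, 366 and 1196 on control arrays 1, 2 and 3. Nearest to Foxp2 were Cbln2 (0.139), a secreted synapse organizer, and Rasgef1b (0.168). Nearest to Fezf2 were Cbfa2t2 (0.224), a transcriptional corepressor, and Igdcc3 (0.238). Cbfa2t2 had 138, 155 and 126 on Math2 arrays 1, 2 and 3, against 80.0, 49.6 and 66.1 on control arrays 1, 2 and 3. Like Fezf2 it did not overlap between groups, but its choice by likeness to Fezf2 favours this, so nothing is read from it. Nearest to Eomes were Gng5 (0.088) and Dsp (0.118), to Cux1 Tnpo3 (0.044) and Dact3 (0.074), and to Emx1 Rpl11 (0.033) and Nol3 (0.056). A flat profile has many near neighbours, so these distances are not comparable between the listed genes.

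By the brightest probe set of each tested gene, related gene lists had medians between -0.091 and 0.13 and 0 members called. By the same measure, the listed factors had a median of 0.44. That median includes Fezf2, which was tested only because of its Math2 signals. All these genes were chosen with earlier results of these data known, so nothing is read from the contrast of medians. Of 17 deep-layer and subplate genes beyond the listed factors, 14 were tested, of which 11 had a log2 difference above 0 and 3 below, with a median of 0.13 and 0 without overlap (10 above and 4 below with quantile normalization). Pcp4, a calmodulin-binding protein of layer V neurons, had 459, 343 and 636 on Math2 arrays 1, 2 and 3, against 207, 246 and 438 on control arrays 1, 2 and 3, a log2 difference of 0.71. Nfia, Bcl6 and Etv1 had 0.51, -0.51 and 0.32. Otx1, Ntsr1 and Cplx3 lay below the median on all 6 arrays and were not tested. Several of these genes, such as Nfia, Nfib and Ccn2, are also made by glia or mesenchymal cells, so the list is not specific to neurons.

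Of 10 upper-layer and callosal factors beyond Cux1, 9 had a probe set and 8 were tested, 2 with a difference above 0 and 6 below, with a median of -0.091 and 0 without overlap (1 above and 7 below with quantile normalization). Rorb, a nuclear receptor of layer IV, had 160, 142 and 212 on Math2 arrays 1, 2 and 3, against 282, 237 and 203 on control arrays 1, 2 and 3, a log2 difference of -0.48. Pou3f3 and Bcl11a had -0.17 and 0.35, and Lmo4, a bright LIM-only factor, had 0.28, which turned to -0.032 with quantile normalization. Cux2, the upper-layer paralog of Cux1, had -0.087 and overlapped between groups. The median number share of this list was 85.8%. Pou3f1, described above as a factor of layer V neurons, is counted here with a log2 difference of -0.22, so the list is not specific to upper layers.

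Of 16 dorsal telencephalic progenitor and area-patterning factors, 11 had a probe set and 10 were tested, 6 with a difference above 0 and 4 below, with a median of 0.022 (7 above and 3 below with quantile normalization). Hes5, a Notch effector, was the 1 tested gene of the list without overlap, at 82.6, 94.2 and 68.5 on Math2 arrays 1, 2 and 3, against 50.9, 29.9 and 59.2 on control arrays 1, 2 and 3, a log2 difference of 0.75. These signals lay below the array medians on all 6 arrays, and with mean log2 signals of 6.47 in Math2 arrays and 5.71 in control arrays, Hes5 too passed the filter of 6.07 only through its Math2 signals, so nothing is read from its separation. Id4, Lhx2 and Nr2f2 had 0.51, 0.27 and -0.16. Among the closest paralogs of the listed factors, 7 were tested, 2 with a difference above 0 and 5 below, with a median of -0.087 (3 above and 4 below with quantile normalization). Foxp4, of the same forkhead family as Foxp2, had -0.58, and its groups overlapped. Its mean log2 signals were 6.05 in Math2 arrays and 6.62 in control arrays. Foxp4 thus passed the filter of 6.07 only through its control signals, so nothing is read from its difference. Sox13 and Sox6, of the same family as Sox5, had -0.22 and -0.13.

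**Figure D5:**
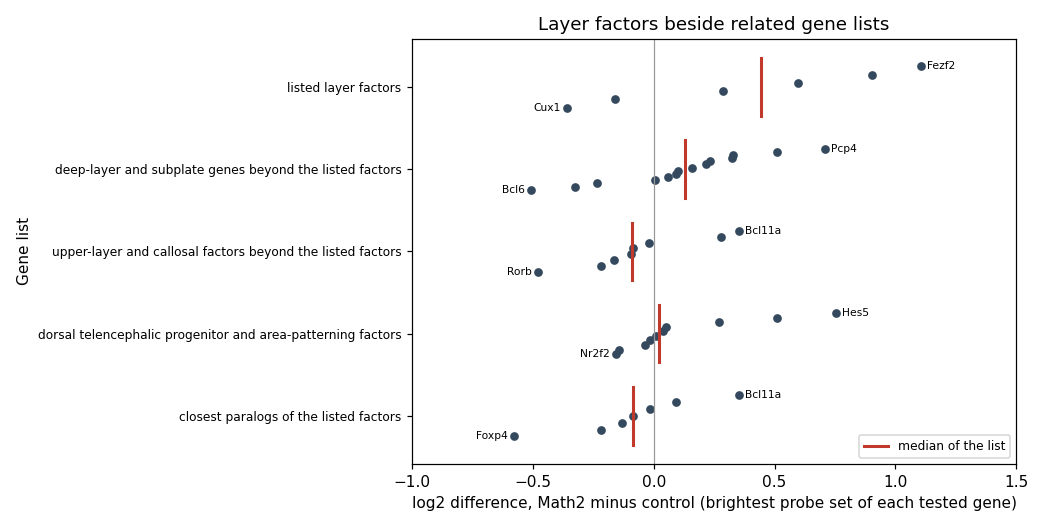
Log2 differences (Math2 minus control) of each tested gene's brightest probe set for the listed layer factors and 4 related lists; red lines are list medians, and the lowest and highest gene of each list are named. The listed factors span -0.36 for Cux1 to 1.11 for Fezf2, and the related lists have medians between -0.091 and 0.13.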

How the data were processed

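The authors deposited 1 table of signal intensity, on a linear scale and never negative, made with MAS5 per the submitters' processing notes; no source used here states its version or settings. Probe sets were named by the platform annotation, and 20758 of 20826 single symbols matched RefSeq genes of GRCr8 by gene number, with 0 changed. No genome build applies to the array.

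The pseudocount of 7.41, added before taking log2, is the 10th percentile of positive values. Probe sets whose mean log2 signal reached 6.07, the 40th percentile, entered the test (18625 of 31042). It was a two-sided limma test (version 3.58.1 in R 4.3.3, lmFit and eBayes with a mean-variance trend), adjusted by Benjamini-Hochberg over all 18625, with a threshold of 0.05. In simulated data for Math2 against control with 18625 probe sets, 7 of 100 changes of 2-fold and 89 of 100 of 4-fold were recovered, with 5 false calls. Every probe set of the listed factors is named, with up to 4 genes of smallest p per related list and the 2 probe sets nearest in profile to each listed gene; exceptions are stated. The listed factors and gene lists were chosen with earlier results of these data known. In the lists each gene stands for its brightest probe set.

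For Math2 and control arrays sharing number 1, 2 and 3, the correlation of deviations from their group mean was 0.326, 0.476 and 0.372. Each was above the limit of 0.1, so the numbers were taken to pair the samples, from the data and not from the labels. Between arrays of different numbers it was -0.460 to 0.104. The highest of these, control array 1 with Math2 array 3, was also just above the limit, so the pairing remains an inference. The fit without the block was the main one.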

Additional observations from a re-analysis of the deposited data

How the results depend on the processing

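Wherever they were tested, the 9 probe sets of the listed factors had no adjusted p under 0.05 in limma under 18 alternatives (pseudocount, filter, normalization, trend, replicate block, or 1 array or numbered pair left out). Fezf2, Eomes 1385222_at and Emx1 were not tested with the filter at the 60th percentile, nor was Fezf2 in some settings with an array or pair left out. The direction held in all 18 for Fezf2, Foxp2, Emx1 and both probe sets of Eomes and of Cux1. The groups did not overlap for Fezf2, so leaving out an array or pair could not reverse its direction. Foxp2 and both probe sets of Eomes and of Cux1 had the same sign in 3 of 3 numbered pairs. For these, leaving out a pair could not reverse the direction. The direction of Bcl11b did not hold. Over the settings that left out an array or pair, 1384944_at ranged from -0.97 to 0.49 and 1391948_at from -0.95 to 0.89. With the replicate block, 1384944_at was 0.027 without pair 1 and 0.12 without pair 2, and 1391948_at was -0.33 without pair 2, and without the block 1391948_at was -0.017 with the pseudocount at the 25th percentile; the cause was not tested. The replicate block changed no call of a listed factor. Averaging over all tested probe sets of a gene moved the median of the deep-layer and subplate list from 0.13 to 0.19. That of the upper-layer and callosal list moved from -0.091 to -0.19. The progenitor and area-patterning list moved from 0.022 to 0.043, and the paralogs from -0.087 to -0.017. Over all probe sets, 3 were called higher with the replicate block and 4 higher and 1 lower with the replicate block and quantile normalization. With an array or pair left out, 0 to 48 were called higher and 0 to 64 lower, and 1165 to 1976 were higher and 1323 to 2428 lower without overlap, where fewer arrays must separate. Without a filter, 1484 were higher and 1338 lower without overlap among more probe sets, and with the filter at the 60th percentile 437 were higher. The number of arrays and the dim signals of Fezf2, Tbr1 and Eomes 1385222_at limit what could be detected.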
